A study of Rattus norvegicus with 12 samples.

Results

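Gene expression of T cells that recognise myelin basic protein (MBP) was compared in control rat lungs between day 0 and day 1 after MBP was given through the trachea. The comparison was made up of the 6 libraries whose titles carry PBS, 3 of day 0 and 3 of day 1, out of 12 libraries in all. The animals were wild-type LEW/Crl rats, an inbred Lewis strain, 6 to 8 weeks old. All PBS rats had received phosphate-buffered saline into the trachea for 7 days before the immunization. The other 6 libraries, 3 of day 0 and 3 of day 1, came from rats of the same strain and age pretreated in the same way with the antibiotic labelled NEO, and they entered the model as 2 further groups. The T cells carried a fluorescent label and were sorted from collagenase-treated lungs after leukocyte enrichment on a Percoll gradient. The sources used here do not give how the cells were labelled, how they came to be in the lung or whether a library is 1 animal or a pool. The p-values therefore measure the spread between these libraries, which may be technical.

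A T cell that meets its antigen on a presenting cell leaves its resting state. As background, such cells are known to switch on receptors and secreted mediators from genes that were nearly silent, to raise metabolism and protein synthesis, and to lower genes of the resting state. Lewis rats are widely used for studies of autoimmunity to MBP, a protein of the myelin sheath, and the lung is known as a site where such T cells can stay and be reactivated.

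The files name genes by rat Ensembl identifiers, and 0 of the 32623 identifiers could be matched to a symbol in the gene table used here. The sort could therefore not be checked against T cell markers or markers of other lung cells. The results below describe gene groups by their level and size of change, with 4 identifiers as examples, and no gene function is assigned. In sorted bulk RNA, fewer cells of a type and less RNA per cell cannot be told apart. No library without immunization was taken on day 1, so the antigen, the instillation, the time and the day of sorting cannot be told apart either.

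The PBS libraries held 12654771 to 16636349 counts, and a gene with no count could still have been present at up to 3 counts, which is 0.18 to 0.237 counts per 1e+06 (CPM). The PBS libraries differed more between the days than within a day. Of the variation of log2 CPM among the 6 libraries, 58.3% lay between the days, 12.5% among the day 0 libraries and 29.2% among the day 1 libraries. The day 0 libraries correlated with each other at 0.984 to 0.989, and libraries of different days at 0.934 to 0.950, across genes, which are not independent replicates. Day 1 replicates 1 and 2 correlated at 0.987. Replicate 3 correlated with them at 0.963 and 0.958 and stood apart, as 79.3% of the variation among the day 1 libraries lay between it and the mean of the other 2. The same share was 39.5% for replicate 2 and 31.2% for replicate 1. These shares overlap and add to more than the whole, so they are not parts of it. The NEO day 1 library numbered 3 stood apart likewise, with correlations of 0.947 and 0.937 with the other NEO libraries of day 1, which correlated at 0.979 with each other. The count of calls is given below without PBS day 1 replicate 3, and without both day 1 libraries numbered 3. No setting left out the NEO library numbered 3 alone. In NEO, day 0 replicate 1 is known to stand apart, and it enters here through the shared estimate of the spread. Without it 4468 genes were called in PBS.

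**Figure D1:**
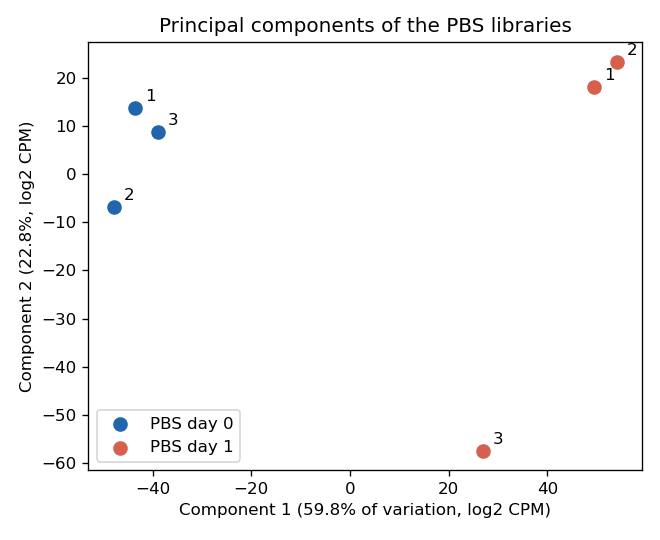
The first principal component of log2 CPM over the 6 PBS libraries (x axis) is plotted against the second (y axis), each point being 1 library with its replicate number. The days separate on component 1 (59.8% of the variation), and day 1 replicate 3 lies apart from the other 5 libraries on component 2 (22.8%).

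More than 1 in 4 tested genes were called as changed between the days. With edgeR (quasi-likelihood, p adjusted by Benjamini-Hochberg), 3205 of 12449 tested genes were called (25.7%), of which 1525 rose (12.2% of those tested) and 1680 fell (13.5%). A rise of at least 2-fold was found for 645 genes (5.18%) and a fall of at least 2-fold for 416 (3.34%). The CPM ranges of the days did not overlap for 1513 of the 1525 genes that rose and for 1679 of the 1680 that fell. The genes were called from these same libraries, so this separation describes them and is no support for the calls. Over all tested genes, every day 1 library lay above every day 0 library for 3239 genes (26%) and below for 3497 (28.1%), so separation without overlap was more frequent than a call. The 95% interval of the change lay wholly above a 2-fold rise for 365 genes and wholly beyond a 2-fold fall for 85. Leaving out PBS day 0 replicate 1 lowered the calls to 1966 (894 up, 1072 down), and leaving out PBS day 0 replicate 2 lowered them to 1954 (896 up, 1058 down). The rises numbered 976 without PBS day 0 replicate 3, and the falls 1098 without PBS day 1 replicate 2. Without PBS day 1 replicate 3 there were 2202 calls (1050 up, 1152 down), and 2706 when the NEO library of the same day and number was left out as well.

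Genes without a call were in part measured closely enough to bound their change. The 95% interval lay within a 2-fold change in either direction for 61.8% of the 9244 genes not called, and within 1.5-fold for 35.0% of them. For the other uncalled genes the interval reached past 2-fold, so a change of that size is not excluded. The median standard error of a log2 change was 0.20, and it depended on level. It was 0.68 among genes with a PBS mean under 1 CPM and 0.13 among those at 64 CPM or more.

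For genes called with 1 numbered PBS pair left out, the direction of change was nearly always the same in that pair. When both PBS libraries of 1 number were left out, the model was fitted to the other 10 libraries. Between 1031 and 1242 genes that were also tested in all libraries were called. These are fewer than the 3205 calls of the full model, and the remaining calls were not checked in this way. The genes of 1 pair are not independent replicates, and that pair had a part in the filter of the genes tested. With the libraries numbered 1 left out, 522 genes rose, and 99.4% of these were higher on day 1 in the left-out pair as well. All genes together were higher in 49.0% of cases in that pair, which is the background for this share. Their median log2 change was 1.47 in the model and 1.35 in the left-out pair. The 509 genes that fell were lower in 99.8% of cases, with medians of -0.87 in the model and -0.85 in the left-out pair. With number 2 left out, 99.5% of the 555 rises and 99.6% of the 509 falls had the same direction in the left-out pair. With number 3 left out, which includes the day 1 library that stood apart, these shares were 98.6% of 575 rises and 99.0% of 667 falls, and the medians in the left-out pair were 1.44 and -0.75. The direction of the day effect was therefore also seen in the number 3 pair for nearly all of the 1242 genes called without it. The NEO day 1 library numbered 3 stayed in that fit and had a part in the spread that decided the calls. Genes not called there, which may behave otherwise in day 1 replicate 3, are not covered.

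Most of the steep changes were rises. Most changes in either direction lay in genes of middle or high level, as did most tested genes. A mean of at least 16 CPM was found for 72.6% of the genes that rose and 76.1% of those that fell. As background, 3801 of the 12449 tested genes lay at 16 to 64 CPM and 3624 at 64 CPM or more. A change of at least 4-fold was found for 20.7% of the rises (315 genes) and 3.10% of the falls (52 genes). These shares were not tested against each other. Genes were divided by their mean over the 6 PBS libraries. Among the 1067 genes under 1 CPM, 47 (4.40%) rose and 19 (1.78%) fell, and 42 of the 47 rose at least 4-fold. Among the 2233 genes at 4 to 16 CPM, 247 rose with a median log2 change of 1.24, and 285 fell with a median of -0.92. Among the 3624 genes at 64 CPM or more, 589 (16.3%) rose with a median of 0.62, and 655 (18.1%) fell with a median of -0.58. In that highest class 41 genes rose at least 4-fold and 1 fell as far. In the class of 16 to 64 CPM the numbers were 94 and 10. At low levels a small change cannot be called with these errors, so the larger medians there describe the genes that could pass the test.

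**Figure D2:**
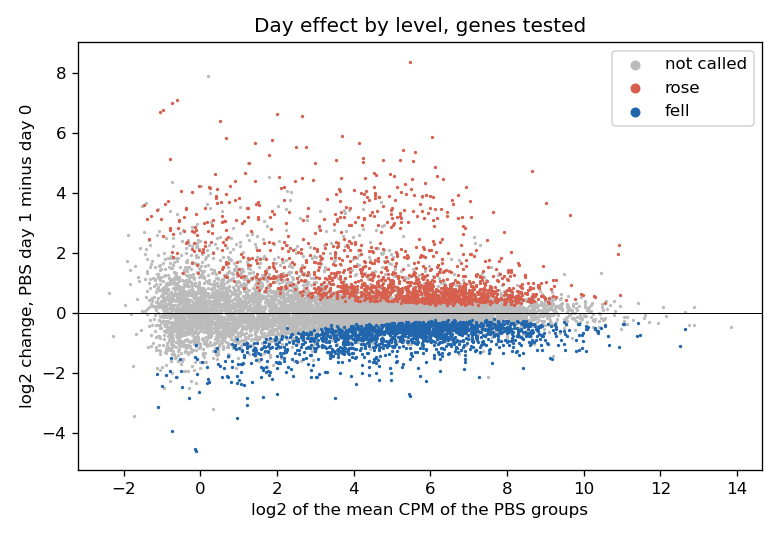
Each point is 1 of the 12449 tested genes, with the log2 of its mean CPM in PBS on the x axis and its log2 change from day 0 to day 1 on the y axis, coloured by the edgeR call. Rises reach further from 0 than falls over most of the range of levels, and calls of small changes lie at the higher levels.

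The called genes together moved a sizeable part of the RNA, and many genes took part. The 645 genes that rose at least 2-fold went from 1.45% ± 0.0238 of the counts on day 0 to 5.19% ± 0.141 on day 1 (SD, n = 3). By library the share was 1.43%, 1.45% and 1.47% on day 0 and 5.04%, 5.20% and 5.32% on day 1. The 880 genes that rose less than 2-fold went from 8.15% ± 0.156 to 12.4% ± 0.387 (SD, n = 3). The 416 genes that fell at least 2-fold went from 4.85% ± 0.0749 to 2.13% ± 0.158, and the 1264 that fell less went from 19.3% ± 0.304 to 13.2% ± 0.255 (SD, n = 3). Since the genes were picked by their change in these very libraries, the shares are a description and carry no test. Among the falls the shallow changes carried most of the RNA lost, while among the rises shallow and steep changes carried nearly equal parts. Rises of less than 2-fold, in 880 genes, made up 52.4% of the CPM gained. The 645 genes that rose at least 2-fold made up the rest, with 22.8% in rises of at least 4-fold. Falls of less than 2-fold made up 69.7% of the CPM lost, and falls of at least 4-fold 0.91%.

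The gain was spread over more genes than the loss. Of the summed gain of the genes that rose, the 10 largest gains made up 13.5%, the 50 largest 28.4% and the 100 largest 39.9%. The 10 largest losses made up 16.8% of the summed loss, the 50 largest 36.4% and the 100 largest 48.7%. It took 163 genes to reach 50% of the gain and 108 to reach 50% of the loss. These are values of group means, and the difference between gain and loss was not tested.

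**Figure D3:**
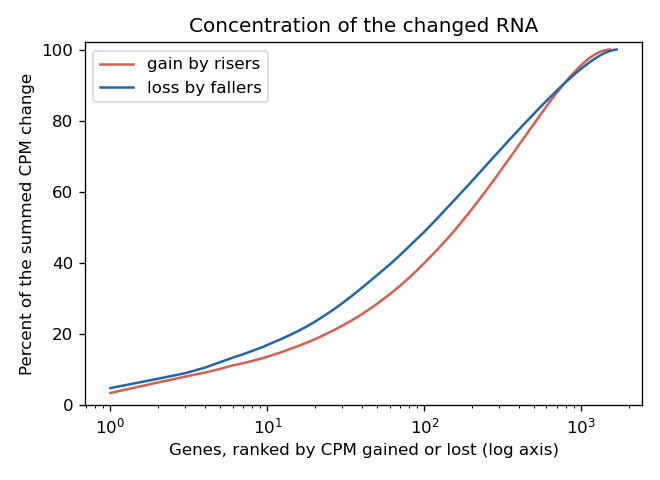
The called genes are ranked by the CPM they gained or lost between the PBS means (x axis, log scale), and the y axis gives the cumulative percent of the summed change. The curve of the losses lies above that of the gains at 10, 50 and 100 genes (16.8% against 13.5%, 36.4% against 28.4% and 48.7% against 39.9%).

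The RNA as a whole was also spread over more genes on day 1. On day 0 the most abundant genes that together held 50% of the counts numbered 736, 754 and 754 in the 3 libraries. On day 1 they numbered 813, 845 and 840, and the days did not overlap. The means were 748 ± 10.4 and 833 ± 17.2 (SD, n = 3; exact permutation p = 0.1, two-sided, the smallest that 3 libraries against 3 allow). The effective number of genes, the exponential of the Shannon entropy of the count shares, was 3440 ± 15.8 on day 0 and 3776 ± 42.0 on day 1 (SD, n = 3; exact permutation p = 0.1, two-sided). The number of genes with at least 1 CPM was 11242 ± 65.3 on day 0 and 11374 ± 153 on day 1 (SD, n = 3), and these overlapped (exact permutation p = 0.3, two-sided). The total counts did not separate the days either (exact permutation p = 0.6, two-sided). Adjusted by Benjamini-Hochberg over these 4 measures, the exact permutation p-values were 0.2, 0.2, 0.4 and 0.6, and none can pass 0.05 in a design of this size.

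Replicate 3 of day 1 was the highest day 1 library for most genes that rose, and it was at least 2-fold lower than the others for a part of the steepest. It was the highest of the 3 day 1 libraries for 59.1% of the genes that rose less than 2-fold and for 65.5% of those that rose 2- to 4-fold, against 41.9% of all tested genes. Among the 189 genes that rose at least 8-fold it was the highest for 56.1% and the lowest for 34.9%. It was the lowest for 29.7% of all tested genes, and replicate 1 was the lowest for 37.0% of the 189, so replicate 3 was not the most frequent lowest library among them. Of these 189 genes, 53 were at least 2-fold lower in replicate 3 than in the mean of replicates 1 and 2, and 3 were at least 2-fold higher. Of the 880 genes that rose less than 2-fold, 0 differed that far in either direction. Their median SD over the day 1 libraries was 0.111 in log2 CPM, and so small a rise can hardly be called unless the libraries lie close. That 0 therefore follows largely from the choice of genes. Among the 9244 genes not called, 826 were at least 2-fold lower in replicate 3 and 175 at least 2-fold higher, so its low values were not confined to genes that rose. As a share, 28.0% of the 189 genes and 8.94% of the uncalled genes were that much lower. The lower quartile of the log2 difference from the day 0 mean among the 189 genes was 3.02 in replicate 1, 3.09 in replicate 2 and 2.33 in replicate 3, while the medians were 3.40, 3.59 and 3.33. The medians of the 3 libraries were thus close, and the spread over the steepest genes reached lower in replicate 3.

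**Figure D4:**
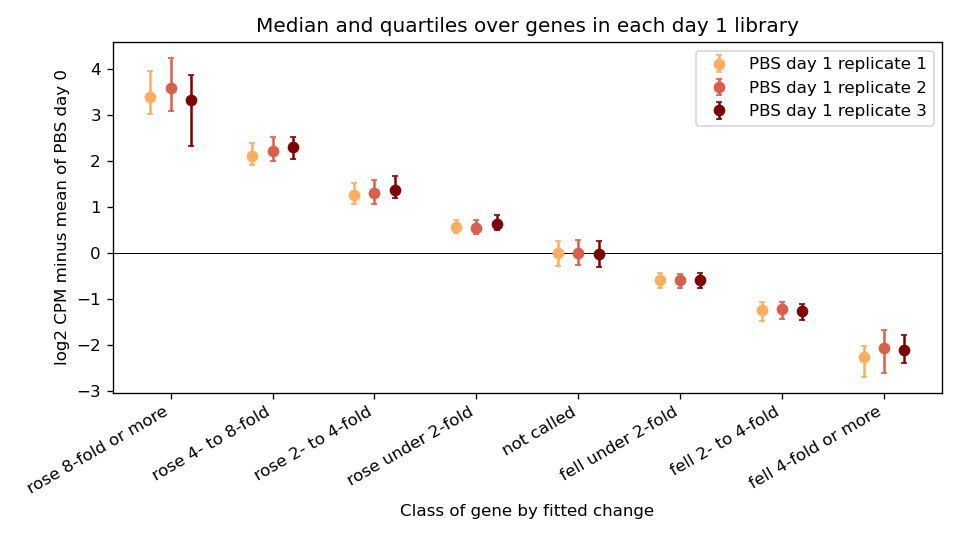
For each class of genes by fitted change (x axis), points give the median over genes and bars the quartiles of log2 CPM in 1 PBS day 1 library minus the mean of PBS day 0 (y axis). The medians of the 3 libraries lie close together in each class, and the bar of replicate 3 reaches lowest among the genes that rose at least 8-fold (2.33, against 3.02 and 3.09).

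Another group of genes was 2-fold above day 0 in replicates 1 and 2 and not in replicate 3. Among the 9658 genes with a PBS mean of at least 4 CPM, 328 were at least 2-fold above the highest day 0 library in all 3 day 1 libraries. A further 157 were so in replicates 1 and 2 but not in replicate 3, of which 38 were called. The corresponding numbers were 27 without replicate 1 and 33 without replicate 2, of which 25 and 32 were called. On the falling side, 136 genes were at least 2-fold below the lowest day 0 library in all 3 day 1 libraries, 42 in all but replicate 1, 29 in all but replicate 2 and 20 in all but replicate 3. Conversely, 75 genes were 2-fold above the highest day 0 library only in replicate 3, 30 only in replicate 1 and 70 only in replicate 2. Whether markers of another cell type moved with these genes was not tested, since no identifier has a name here.

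A small group of called genes went from near silence to a mean of at least 4 CPM. From a mean under 1 CPM on day 0, 36 called genes reached at least 4 CPM on day 1, with a median over genes of 0.441 CPM on day 0 and 7.00 CPM on day 1. None had been at a count of 0 in all day 0 libraries, and 31 of the 36 had at least 1 count in each. The highest value of any of them in a day 0 library was 1.33 CPM. Not all were raised in each day 1 library, as 9 of the 36 were under 1 CPM in at least 1 of them, and the lowest such value was 0.128 CPM. The days did not overlap for 32 of the 36, and the lowest day 1 value was in replicate 3 for 22 of the 36, where replicate 3 was the lowest for 29.7% of all tested genes. The opposite change, from at least 4 CPM to under 1 CPM, was found for 4 called genes. Genes silent on day 0 could be tested only if they had counts elsewhere, so these numbers describe the genes and support nothing further.

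Examples in single libraries are given by the 2 identifiers with the steepest rise and the 2 with the steepest fall among called genes that averaged at least 50 counts on the higher day and whose days did not overlap. Steeper called genes that did not meet both conditions are not shown. ENSRNOG00000009919 had 3, 3 and 5 counts in the day 0 libraries, which is 0.222, 0.237 and 0.300 CPM. On day 1 it had 65.8, 191 and 10.4 CPM in replicates 1, 2 and 3. All day 1 libraries were far above day 0, and they differed among themselves, with replicate 3 the lowest. The log2 change was 8.39 ± 1.38 (SE), with a 95% interval of 5.35 to 11.4 (edgeR adjusted p = 0.00168). Over the other settings its adjusted p ran from 1.15e-11 to 0.0572, the highest being that of limma voom with quality weights.

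ENSRNOG00000060831 had 2, 0 and 1 counts on day 0 and 197, 123 and 38 counts on day 1. In CPM the day 1 values were 13.6, 7.63 and 2.44, again lowest in replicate 3, and the days did not overlap. With 3 counts against 358, the ratio of the pooled values was 111, with a 95% exact counting interval of 37.6 to 539 that covers counting error only. The edgeR adjusted p was 0.0119, and the gene was no longer called when day 0 replicate 2 or 3 of PBS was left out, with edgeR adjusted p of 0.052 and 0.0516.

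ENSRNOG00000052880 fell from 3.62, 3.63 and 3.42 CPM on day 0 to 0.138, 0.434 and 0.321 CPM on day 1. The day 0 values were nearly equal, and every day 1 value was far below them, at 2, 7 and 5 counts. Its log2 change was -3.53 ± 0.77 (SE), with a 95% interval from -5.22 to -1.83 (edgeR adjusted p = 0.00742). No single PBS library left out ended this call.

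ENSRNOG00000008001 had 3.84, 2.61 and 6.07 CPM on day 0 and 0.690, 0.186 and 0.578 CPM on day 1. The groups did not overlap, and the day 0 values were more spread than those of the identifier before. Its log2 change was -3.09 ± 0.82 (SE), with a 95% interval from -4.91 to -1.28 (edgeR adjusted p = 0.0188). It was no longer called without day 0 replicate 3, with an edgeR adjusted p of 0.0668. The same held without day 1 replicate 2, with an edgeR adjusted p of 0.0732, and without day 1 replicate 3, with 0.0525.

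**Figure D5:**
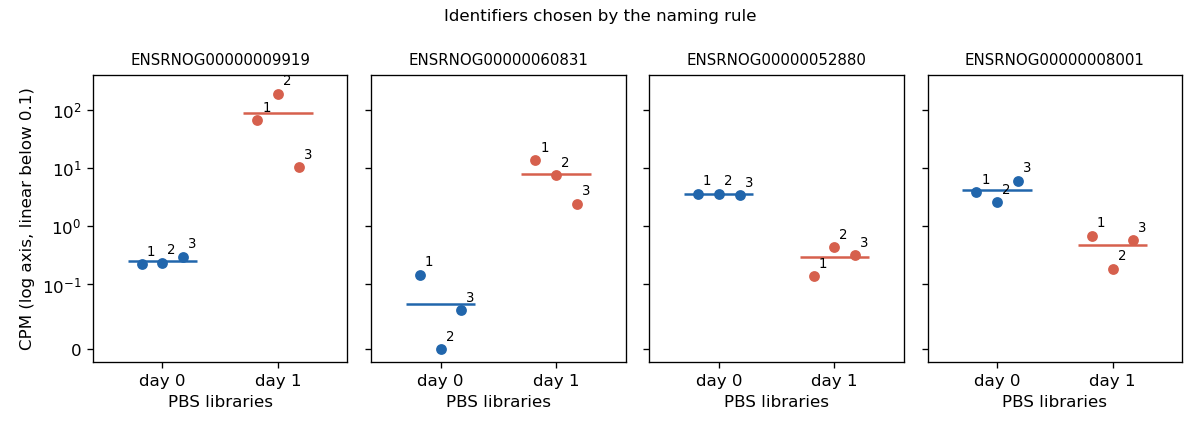
CPM (y axis, log scale, linear below 0.1) of the 4 identifiers in each PBS library by day (x axis), with replicate numbers beside the points and lines at the group means. The days do not overlap for any of the 4, and both identifiers that rose have their lowest day 1 value in replicate 3 (10.4 and 2.44 CPM).

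Whether the day effect in PBS lungs differed from that in NEO lungs was tested for each gene as the difference of the 2 day effects. By edgeR's quasi-likelihood test 0 genes were called (0% of 12449), with 608 at an unadjusted p under 0.05, and DESeq2 and limma voom with quality weights also called 0. Among the 3205 genes called in PBS, 67.1% had a 95% interval of that difference inside a 2-fold change in either direction. For the other genes the interval reached past 2-fold, so a difference of that size between the arms is not excluded. No change described here is therefore shown to be particular to PBS lungs.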

How the data were processed

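RNA was sequenced from sorted T cells of 12 lung samples in 4 groups of 3, taken from the sample titles. Each deposited file lists the raw count of every gene in 1 library. The submitters' processing notes name featureCounts 1.5.0-p1, STAR 2.5.2a and, for base calls, bcl2fastq 2.17.1.14, with rn6 as the genome. Not given in the sources used here are the strand setting, the annotation release and the handling of multiply mapped reads. Copies of genes and overlapping genes may therefore share reads.

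The test was edgeR 4.0.16 (R 4.3.3) on these counts. After filterByExpr and TMM scaling, glmQLFit and glmQLFTest were fitted to all 12 libraries with 1 mean per group (8 residual degrees of freedom). A gene was called where its p, adjusted by Benjamini-Hochberg across the whole table, was under 0.05. The SE is the log2 change over the root of F. CPM values are scaled after TMM, and log2 CPM used a prior count of 2. Shares of counts, the limits of a count of 0 and the gene numbers per library use raw totals. No 2 PBS libraries of a group agreed within sampling noise (chi-square per degree of freedom of at least 9.75).

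The comparison, the lists and the rules were chosen with earlier results of these data known. The 27 gene lists gave no values, since no identifier matched a symbol. Identifiers were named by the largest change among called genes that averaged 50 or more counts on the higher day and whose days did not overlap, limited to 2 in each direction. Alternatives were other scalings (DESeq2 size factors, upper quartile), DESeq2 1.42.0, voom with quality weights (limma 3.58.1), other filters, the PBS libraries alone, the replicate number as a block, and libraries left out. The scripts were tested on simulated data.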

Additional observations from a re-analysis of the deposited data

How the results depend on the processing

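Of the 3205 calls, 0 changed sign under any of the 19 other settings, among the calls tested there. The number of calls was 5647 (2678 up, 2969 down) under limma voom with quality weights, which shared 3192 calls with the same direction, and 5186 with the PBS libraries fitted alone (2542 up, 2644 down), which shared 3165. The cause was not tested. With NEO day 0 replicate 1 left out it was 4468. With 1 PBS library left out, the calls ranged from 1954 to 2211, the rises from 894 to 1066 and the falls from 1058 to 1215, and fewer libraries enter these fits. With both PBS libraries of 1 number left out, a setting chosen after seeing the data, there were 1031 calls for number 1 (522 up, 509 down), 1067 for number 2 (557 up, 510 down) and 1244 for number 3 (576 up, 668 down). The share of rises among the calls was 51.1% with DESeq2's size factors and 44.2% with upper-quartile factors.

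No pairing of the PBS libraries by replicate number was seen, though 3 libraries a group are too few to exclude one. Deviations from the group means correlated at 0.271, -0.161 and -0.13 between same-numbered libraries of the days, and 1 of the 3 day 1 libraries correlated best with its own number. With the replicate number as a block, 3395 genes were called (1649 up, 1746 down).

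The difference of the day effects gave 0 calls in each setting that held both arms. All 4 identifiers kept their direction in each setting that tested them. With both PBS libraries of 1 number left out, ENSRNOG00000060831, ENSRNOG00000052880 and ENSRNOG00000008001 were not called for any of the 3 numbers, with edgeR adjusted p from 0.0573 to 0.133. With both day 1 libraries numbered 3 left out, ENSRNOG00000008001 was not called (edgeR adjusted p = 0.0519). The settings were not run on the gene lists, which had no named members. Depth limits calls at low levels, where the median SE was largest.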
